A study of Mus musculus with 20 samples.

Results

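The 7 genes described here, Afp, Igf2bp3, Cd24a, H19, Igf2, Gpc3 and Dlk1, are oncofetal liver genes: they are active in the fetal liver, are turned down after birth and are known to be active again in liver tumours. They were picked by gene symbol from this known role, with earlier results of these data known, and all 7 are among the 20914 genes of the count table. RNA was measured in liver tissue of 10 KO mice and 10 WT mice, all males aged 8 weeks (strain label LiB12cKO), from the left lateral lobe. The KO mice were HSD17B12lox/lox;Alb-CreCre/WT and the WT mice HSD17B12lox/lox;Alb-CreWT/WT, so mice of both genotypes carried the floxed gene and only KO mice carried Cre. Cre was driven by the promoter of the albumin gene, on in hepatocytes from fetal life, and its effects cannot be told apart from those of the lost gene. Hsd17b12 encodes an enzyme that lengthens long fatty acids, the 3-ketoacyl-CoA reductase, and liver cells in which Cre was never active keep an intact copy.

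The fetal liver makes blood cells and grows quickly, and its hepatoblasts express a set of secreted proteins, growth factors and RNA-binding proteins that the adult hepatocyte largely lacks. In mice the silencing of Afp, H19 and Gpc3 after birth is known to depend on the repressors Zhx2 and, for Afp, Zbtb20. H19 and Igf2 are neighbours in an imprinted region and share enhancers, with H19 expressed from the maternal and Igf2 from the paternal copy, while Dlk1 belongs to another imprinted region.

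The promoters of Afp and Igf2bp3, the 2 genes with the largest rises among the 7, are shown so that they can be compared. Each runs 5′ to 3′ from 250 bases before to 50 bases after the annotated start (RefSeq, GRCm38.p6: Afp chr5:90490464-90490763, plus strand; Igf2bp3 chr6:49214905-49215204, minus strand). Capitals mark the motifs searched, on both strands: the TATA box TATAAA and the E-box CACGTG.
Afp: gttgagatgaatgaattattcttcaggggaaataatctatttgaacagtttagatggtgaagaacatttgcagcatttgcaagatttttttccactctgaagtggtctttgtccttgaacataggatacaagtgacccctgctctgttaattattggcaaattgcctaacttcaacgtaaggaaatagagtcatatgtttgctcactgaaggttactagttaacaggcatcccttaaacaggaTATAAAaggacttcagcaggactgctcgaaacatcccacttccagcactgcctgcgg
Igf2bp3: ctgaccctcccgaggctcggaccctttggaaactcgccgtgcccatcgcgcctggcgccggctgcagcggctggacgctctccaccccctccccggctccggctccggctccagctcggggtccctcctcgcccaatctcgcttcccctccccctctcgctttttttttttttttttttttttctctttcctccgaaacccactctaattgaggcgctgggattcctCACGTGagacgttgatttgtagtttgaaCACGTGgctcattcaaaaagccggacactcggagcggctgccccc
In the Afp promoter TATAAA began 7 bases before the start, and CACGTG was not in the window. The window of Igf2bp3 held no TATAAA, and CACGTG began 23 bases before the start and again at base 6 of the transcript. Among 32851 promoters of this length, 13.6% held TATAAA and 7.15% CACGTG, and 0.594% held CACGTG at least 2 times. Promoters were matched for 5 of the 7 genes, and those of H19 and Cd24a are not shown.

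Each library held between 16693195 and 29124124 fragments assigned to genes. Hsd17b12 averaged 47.9 ± 2.48 CPM in KO livers and 151 ± 18.5 CPM in WT livers (TMM-scaled CPM, a count relative to library size, ± SD, n = 10 each). Its log2 fold change of KO over WT was -1.66 (edgeR quasi-likelihood test, Benjamini-Hochberg adjusted p = 3.31e-14). Of the 13670 genes with enough counts to be tested, 8040 (58.8%) were called at an adjusted p under 0.05, 3877 (28.4%) higher and 4163 (30.5%) lower in KO. Over all tested genes the median log2 fold change was -0.02 with TMM factors and 0.44 when libraries were scaled by their totals alone, which turned the calls into 9354 (68.4%) higher and 919 (6.72%) lower. In 984 tested genes (7.2%) every KO mouse lay above every WT mouse, and in 836 (6.12%) every KO mouse lay below every WT mouse.

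Of the 7 genes, 5 passed the filter on low counts, and 3 of these, Afp, Igf2bp3 and Cd24a, were higher in KO livers. Lower calls numbered 0 of the 5 with edgeR, also at an unadjusted p under 0.05, with DESeq2 and with limma. H19 and Gpc3 were not called. Igf2 and Dlk1 had too few counts for the main test, and a fit of all 20914 genes without the filter, which called 4216 genes (20.2%) higher and 4384 (21%) lower in KO, called Igf2 lower and did not call Dlk1. These p-values measure the spread between the mice of each genotype, and in whole tissue more cells of a type and more RNA per cell cannot be told apart.

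**Figure D1:**
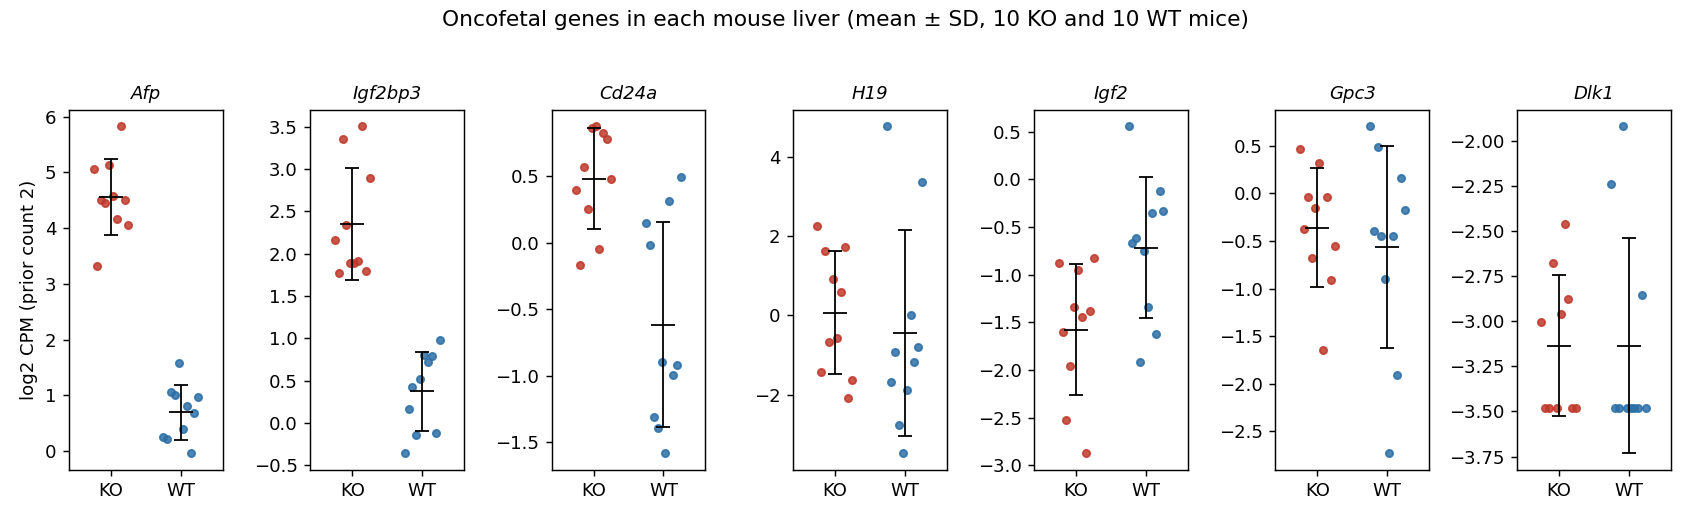
Level of each of the 7 genes in each mouse, as log2 CPM with a prior count of 2 on a scale of its own per gene; points are mice, KO in red and WT in blue, with the mean and SD of the 10 mice of each genotype. Afp and Igf2bp3 separated the genotypes in every mouse, and the other 5 genes overlapped.

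Per length of transcript, Afp had the highest median of the 7 genes in both genotypes. Its RPKM (CPM per kilobase of gene length) had a median of 10.9 in KO livers, followed by Igf2bp3 at 0.928, Cd24a at 0.741, H19 at 0.384, Gpc3 at 0.329, Igf2 at 0.0674 and Dlk1 at 0.00364. The lowest Afp value in a KO mouse, 4.74 RPKM, exceeded the highest Igf2bp3 value, 2.60 RPKM, whereas the ranges of all later neighbours in this order overlapped. In WT livers the median RPKM was 0.760 for Afp, 0.298 for Igf2bp3, 0.290 for Gpc3, 0.244 for Cd24a, 0.151 for H19, 0.130 for Igf2 and 0 for Dlk1. There the ranges of Afp, with a lowest value of 0.423 RPKM, and Igf2bp3, with a highest value of 0.433 RPKM, overlapped, as did those of the later neighbours down to Igf2. The lowest Igf2 value in a WT mouse, 0.0413 RPKM, exceeded the highest Dlk1 value, 0.0364 RPKM.

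Afp encodes alpha-fetoprotein, the main serum protein of the fetus and the classical blood marker of hepatocellular carcinoma (Entrez 11576; mm10 chromosome 5, 90490714 to 90508907, plus strand, 15 exon blocks). Its lowest, median and highest level was 9.88, 22.7 and 56.8 CPM in KO livers, against 0.883, 1.59 and 2.90 CPM in WT livers. All 10 KO mice lay above all 10 WT mice, with KO_434 the highest and KO_391 the lowest of the KO mice. The raw counts behind these levels were 247 to 1217 per KO mouse and 15 to 52 per WT mouse. Mean levels were 26.0 ± 13.1 CPM in KO livers and 1.62 ± 0.600 CPM in WT livers (SD, n = 10 each). The log2 fold change was 4.01 (SE 0.29, 95% interval 3.41 to 4.61, edgeR adjusted p = 6.20e-10), and 63 of the 13670 tested genes had a larger one.

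Alb, whose product takes over from alpha-fetoprotein in adult plasma, moved the other way. It averaged 35516 ± 5036 CPM in KO livers and 59310 ± 9674 CPM in WT livers (SD, n = 10 each), a log2 fold change of -0.74 (edgeR adjusted p = 6.54e-06), although with library totals alone it was -0.28 and missed the threshold (adjusted p = 0.0539). Set against Alb in the same mouse, the RPKM of Afp was 0.0370% to 0.147% of that of Alb in KO livers, with a median of 0.0612%, against 0.00136% to 0.00648%, with a median of 0.00256%, in WT livers. The ratio thus did not overlap between the genotypes, and Afp stayed far below Alb in every liver. All 3 tested relatives of Afp in the albumin gene family were lower in KO, Afm (afamin, a vitamin E carrier) with a log2 fold change of -0.94 and Gc (the vitamin D binding protein) with one of -0.40. With library totals alone Alb was no longer called and the value of Gc was 0.07.

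The known regulators of Afp did not include a gene called higher in KO: of 15 tested, 0 were higher and 9 lower, with a median log2 fold change of -0.36. With library totals alone, 7 were higher and 2 lower, with a median of 0.11 against 0.44 for all tested genes. Zhx2, the postnatal repressor, averaged 15.5 ± 2.02 CPM in KO and 15.7 ± 1.80 CPM in WT livers, a log2 fold change of -0.02 (SE 0.08, edgeR adjusted p = 0.805). Zbtb20, a zinc-finger repressor of Afp, averaged 3.38 ± 0.757 CPM in KO and 3.43 ± 0.875 CPM in WT, a log2 fold change of -0.03 (SE 0.16, adjusted p = 0.901). Zfhx3, which binds AT-rich elements of the Afp enhancer, had a value of -0.01 (adjusted p = 0.908), and Trp53, which represses Afp, one of -0.02 (adjusted p = 0.820). With library totals alone the log2 fold changes of these 4 genes were 0.44 to 0.45, at the median of all genes.

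Among the activators of Afp and of other hepatocyte genes, Foxa3 (log2 fold change -1.18, SE 0.14), Foxa2 (-0.82, SE 0.16), Hnf4a (-0.57, SE 0.12) and Cebpa (-0.48, SE 0.08) were lower in KO, each with an edgeR adjusted p under 0.05. Cebpb was also lower (-0.61, SE 0.23, adjusted p = 0.0278), as were the Zhx2 relative Zhx3 (-0.38) and the nuclear receptor Nr5a2 (-0.24, adjusted p = 0.0269). Foxa1 (0.09, adjusted p = 0.688) and Zhx1 (0.07, adjusted p = 0.320) were not called. With library totals alone, Foxa3 (-0.70) and Foxa2 (-0.35) were still called lower in KO, and the calls of Hnf4a (-0.11, edgeR adjusted p = 0.341), Cebpa (-0.02, adjusted p = 0.864), Cebpb (-0.12, adjusted p = 0.598) and Zhx3 (0.06, adjusted p = 0.684) were lost. Nr5a2 (0.22, adjusted p = 0.0441), Foxa1 (0.56, adjusted p = 0.00298) and Zhx1 (0.53, adjusted p = 4.14e-07) were then called higher. Lpl, the lipoprotein lipase that Zhx2 also represses after birth, averaged 104 ± 22.6 CPM in KO and 53.8 ± 24.1 CPM in WT, with a log2 fold change of 0.95 (SE 0.21, edgeR adjusted p = 0.000647). The genotypes overlapped, at 64.2 to 138 CPM in KO and 24.6 to 101 CPM in WT. H19 and Gpc3, whose silencing also depends on Zhx2, were not called in the main test. The part of Zhx2 in the level of Lpl was not tested.

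Igf2bp3 encodes an RNA-binding protein of fetal tissue that binds Igf2 and other mRNAs (Entrez 140488; chromosome 6, 49085218 to 49214954, minus strand, 15 exon blocks). Its lowest, median and highest level was 3.32, 4.03 and 11.3 CPM in KO livers, against 0.691, 1.30 and 1.88 CPM in WT livers. The genotypes did not overlap, and KO_434 and KO_402, at 11.3 and 10.1 CPM, stood above the other KO mice. Mean levels were 5.58 ± 2.97 CPM in KO and 1.27 ± 0.414 CPM in WT livers (SD, n = 10 each), with a log2 fold change of 2.13 (SE 0.27, 95% interval 1.58 to 2.69, edgeR adjusted p = 6.97e-07). The raw counts were 69 to 242 per KO mouse and 14 to 40 per WT mouse.

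Its paralogue Igf2bp2 was also higher in KO, with 4.80 ± 1.96 CPM in KO and 0.992 ± 0.368 CPM in WT and a log2 fold change of 2.28 (SE 0.24, edgeR adjusted p = 4.81e-08), and no KO mouse overlapped a WT mouse. Igf2bp1, the third paralogue, had 4 counts in all KO and 4 in all WT mice. Of the 10 fetal RNA-binding and chromatin genes listed, 9 were in the table and 3 were tested, of which 2 were higher and 0 lower, with a median log2 fold change of 1.60. The other call was Arid3a, a DNA-binding protein of fetal tissues and B cells, with 3.30 ± 0.568 CPM in KO, 1.09 ± 0.616 CPM in WT and a log2 fold change of 1.60 (SE 0.26). The chromatin protein gene Hmga1 was not called (0.20, SE 0.13, adjusted p = 0.182).

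Sall4, a zinc-finger factor of fetal liver and of a class of liver tumours, missed the filter with 243 counts over the KO mice and 9 over the WT mice. Its level was 0.203 to 2.33 CPM in KO livers and 0 to 0.235 CPM in WT livers, so the lowest KO values overlapped the highest WT values. In the fit without the filter its log2 fold change was 4.30 (edgeR adjusted p = 1.44e-06). Lin28b, which blocks maturation of let-7 in fetal liver, had 3 counts in KO and 0 in WT. Hmga2 had 17 counts in each genotype, Trim71 had 10 in KO and 5 in WT, and Plag1 had 47 in KO and 37 in WT. At these levels a difference was not detectable at this depth.

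**Figure D2:**
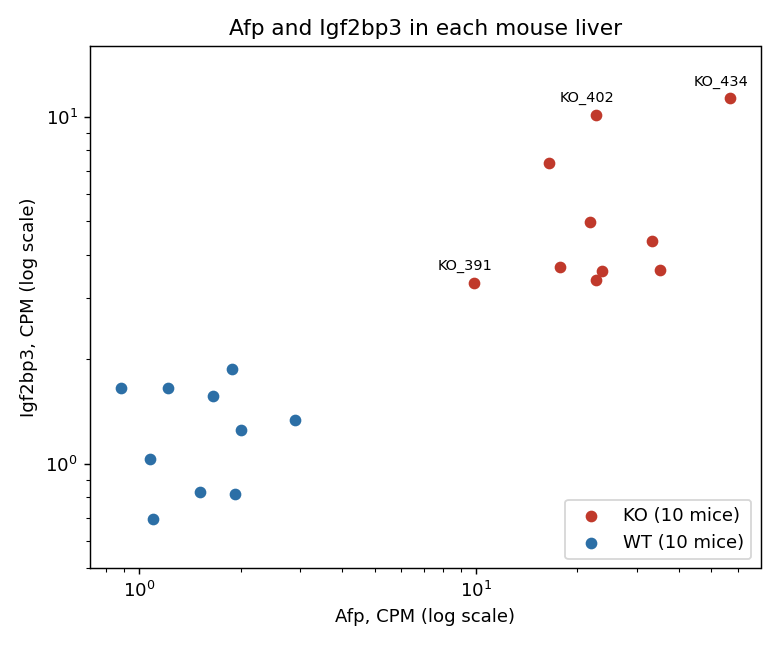
Igf2bp3 against Afp in each mouse, both as CPM on log axes, KO in red and WT in blue. The 10 KO mice lay above the 10 WT mice on both axes, and KO_434 was highest on both, whereas KO_402 was high for Igf2bp3 and at the KO median for Afp.

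Cd24a encodes a small mucin-like surface protein of progenitor cells, biliary cells, immature B cells and neutrophils (Entrez 12484; chromosome 10, 43579169 to 43584265, plus strand, 2 exon blocks). Its lowest, median and highest level was 0.800, 1.35 and 1.74 CPM in KO livers, against 0.244, 0.443 and 1.32 CPM in WT livers. The genotypes overlapped: 5 KO mice lay above all WT mice, and WT_441, WT_415, WT_389 and WT_390 reached into the KO range. Mean levels were 1.35 ± 0.348 CPM in KO and 0.653 ± 0.400 CPM in WT livers (SD, n = 10 each). The log2 fold change was 1.00 (SE 0.28, 95% interval 0.43 to 1.57, edgeR adjusted p = 0.00375), on 19 to 51 raw counts per KO mouse and 4 to 28 per WT mouse. Cd24a has near-identical processed copies elsewhere in the mouse genome, and multi-mapping fragments were counted, so its level is uncertain. Multi-mapping fragments made up 2.10% to 8.51% of mapped fragments in KO libraries and 3.40% to 14.2% in WT libraries. Only KO_391, at 8.51%, was above 4.05% among the KO libraries, and only WT_441, at 3.40%, was below 5.09% among the WT libraries. The share thus differed with genotype, and the part of multi-mapping fragments in the Cd24a difference was not tested. An unnamed gene on the opposite strand shares 482 exon bases with it and had 0 counts in KO and 1 in WT.

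Markers of the other cells that make Cd24a were read in the same livers. The 4 tested B cell genes, among them Cd79a (log2 fold change 0.36), Cd79b (-0.17) and Cd22 (0.39), gave 0 calls with edgeR, and so did the 3 tested neutrophil genes, Csf3r (0.34), S100a8 (0.28) and S100a9 (0.06). At an unadjusted p under 0.05, with DESeq2 and with limma-trend the count was also 0 in both lists, and limma-voom with quality weights called 1 gene higher in each. So did edgeR with library totals alone, and without KO_391, WT_389 and WT_441 it called 1 neutrophil gene higher. The 7 listed B cell genes summed to 2.08 to 6.89 CPM in KO and 1.53 to 9.07 CPM in WT, with the highest sum in WT_441. The 10 listed neutrophil genes summed to 3.49 to 10.6 CPM in KO and 1.65 to 7.57 CPM in WT. Of 11 tested biliary and progenitor markers, 5 were higher, 2 lower and 4 not called, with a median log2 fold change of 0.76. With library totals alone, 7 were higher and 0 lower. Among the 5 higher genes were Epcam, a surface protein of cholangiocytes (0.95), Krt23 (2.02) and Tnfrsf12a, the TWEAK receptor of progenitor cells (2.55). The 2 lower genes are not named here, so these 3 do not stand for the list. Of all tested genes 28.4% were higher and 30.5% lower with TMM factors. The 13 listed biliary genes summed to 109 to 316 CPM in KO and 55.7 to 95.7 CPM in WT, without overlap, and no listed gene was at 0 in every mouse. The part of these cells in the Cd24a level was not tested. Siglecg, which encodes a receptor for Cd24 on immune cells, had too few counts to be tested, and Selp, the endothelial selectin that binds it, was lower in KO (1.36 ± 0.352 CPM in KO, 3.13 ± 0.926 CPM in WT, log2 fold change -1.19, edgeR adjusted p = 6.60e-06).

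H19 is an imprinted long noncoding RNA that also carries the miR-675 hairpin (Entrez 14955; chromosome 7, 142575532 to 142578146, minus strand, 1 exon block; Mir675, on the same strand, lies inside it with 84 bases and had 0 counts in either genotype). Its lowest, median and highest level was 0.147, 1.01 and 4.66 CPM in KO livers, against 0, 0.396 and 27.4 CPM in WT livers. The highest values were in WT mice, 27.4 CPM in WT_389 (675 counts) and 10.2 CPM in WT_441 (216 counts), whereas the other 8 WT mice lay at or below 0.921 CPM. Mean levels were 1.59 ± 1.56 CPM in KO and 4.03 ± 8.79 CPM in WT livers (SD, n = 10 each), and the log2 fold change was -1.37 (SE 0.97, 95% interval -3.39 to 0.65, edgeR adjusted p = 0.232). Without WT_389 and WT_441 it was 2.20 (edgeR adjusted p = 0.0115), with 5 of 10 KO mice above the other 8 WT mice, whose mean was 0.333 ± 0.293 CPM (SD, n = 8). In that fit 3954 genes (28.5%) were higher in KO. The 2 mice left out held the highest H19 values, so leaving them out raises this log2 fold change by construction. Its adjusted p therefore does not test whether H19 is higher in KO.

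RNA of skeletal muscle, a known adult site of H19, was also highest in these 2 WT samples. The sum of 12 skeletal muscle marker genes, a list chosen after the libraries were examined, was 0.835 to 2.80 CPM in KO livers. In WT livers it was 936 CPM in WT_389, 242 CPM in WT_441 and at most 11.0 CPM in the other 8. Only 1 of the 12 markers, the myosin light chain gene Mylpf, passed the filter, with 0.743 ± 0.185 CPM in KO and 6.29 ± 14.0 CPM in WT. The 2 libraries with the highest muscle marker sums were also the 2 with the most H19, and among the other 18 the highest H19 value was in a KO liver. The part of muscle RNA in the level of H19 was not tested. With WT_389 alone left out the log2 fold change of H19 was 0.12 (edgeR adjusted p = 0.915).

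**Figure D3:**
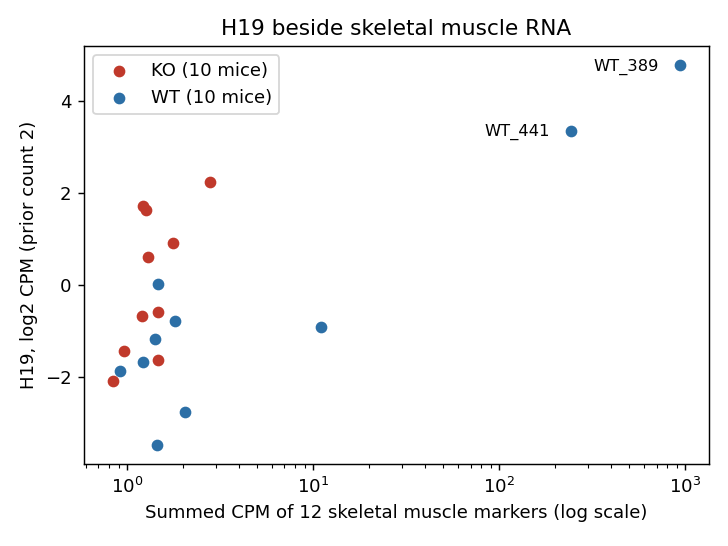
H19 as log2 CPM (prior count 2) against the summed CPM of 12 skeletal muscle markers on a log axis, 1 point per mouse, KO in red and WT in blue. WT_389 and WT_441 lay apart from the other 18 mice on both axes, at 936 and 242 CPM of muscle markers.

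Igf2 encodes the fetal insulin-like growth factor (Entrez 16002; chromosome 7, 142650768 to 142661035, minus strand, 6 exon blocks). Its lowest, median and highest level was 0.0467, 0.286 and 0.473 CPM in KO livers, against 0.175, 0.551 and 1.38 CPM in WT livers. In all, 71 fragments were counted in KO and 123 in WT, and the genotypes overlapped, with 7 WT mice above all KO mice and WT_389 the highest. The fit without the filter gave a log2 fold change of -1.10 (SE 0.37, 95% interval -1.86 to -0.33, edgeR adjusted p = 0.0191). The call was lost without WT_389 (-0.86, adjusted p = 0.0599), without WT_389 and WT_441 (-0.79, adjusted p = 0.0980) and with library totals alone (-0.64, adjusted p = 0.158). Its antisense neighbour Igf2os shares 98 exon bases with it and had 2 counts in KO and 3 in WT. KO_434, the mouse with the most Afp and Igf2bp3, had the least Igf2, with 1 count.

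A list of 14 genes held receptors, ligands, binding proteins and receptor substrates of insulin and the insulin-like growth factors, without Igf2. All 14 were tested, and 4 were higher and 6 lower, with a median log2 fold change of -0.30. With library totals alone, 5 were higher and 4 lower, with a median of 0.16. Of all tested genes, 28.4% were higher and 30.5% lower with TMM factors, and 68.4% and 6.72% with library totals alone. Igf1, the growth factor that the adult liver secretes into blood, averaged 296 ± 50.2 CPM in KO and 642 ± 65.5 CPM in WT livers (SD, n = 10 each), a log2 fold change of -1.12 (SE 0.09, edgeR adjusted p = 1.92e-09). Igfals, which holds IGF-1 in a stable complex in plasma, had a log2 fold change of -1.79 (SE 0.15), and the binding protein gene Igfbp4 one of -0.95 (SE 0.10). Igfbp7, a related binding protein of vessels and stroma, was higher (0.51, SE 0.08).

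Other imprinted genes gave 11 higher and 3 lower of 19 tested, with a median log2 fold change of 0.54, and 15 higher and 0 lower with library totals alone. Peg3, a paternally expressed zinc-finger gene, averaged 36.7 ± 11.3 CPM in KO and 5.40 ± 1.73 CPM in WT, a log2 fold change of 2.77 (SE 0.20, edgeR adjusted p = 4.79e-10), without overlap between the genotypes. Impact, which restrains the translational stress kinase GCN2, had 48.7 ± 10.4 CPM in KO and 12.5 ± 2.08 CPM in WT (log2 fold change 1.96), and the sarcoglycan gene Sgce 13.2 ± 3.32 CPM in KO and 3.60 ± 1.07 CPM in WT (1.87). The transporter gene Slc22a18 was also higher (0.89, SE 0.07).

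Gpc3 encodes glypican-3, a heparan sulfate proteoglycan anchored in the membrane of fetal and tumour hepatocytes (Entrez 14734; chromosome X, 52272426 to 52613974, minus strand, 8 exon blocks). Its lowest, median and highest level was 0.230, 0.746 and 1.30 CPM in KO livers, against 0.0611, 0.659 and 1.54 CPM in WT livers. The genotypes overlapped throughout, with 2 WT mice above all KO mice. The log2 fold change was 0.03 (SE 0.35, 95% interval -0.71 to 0.76, edgeR adjusted p = 0.957) and a difference within that interval was not detectable at this depth. An unnamed gene on the opposite strand shares 526 exon bases with Gpc3 and had 0 counts.

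Of 7 tested glypicans and proteins that process them, 1 was higher and 3 lower, with a median log2 fold change of -0.24, and with library totals alone 3 were higher and 2 lower. The shares over all tested genes were 28.4% higher and 30.5% lower with TMM factors. Sulf2, the sulfatase that trims heparan sulfate, averaged 38.1 ± 6.43 CPM in KO and 17.1 ± 5.72 CPM in WT (log2 fold change 1.16, SE 0.16, edgeR adjusted p = 3.76e-06). Notum, the enzyme that inactivates Wnt proteins, averaged 14.0 ± 2.90 CPM in KO and 58.1 ± 13.6 CPM in WT (-2.05, SE 0.14), and the glypican gene Gpc4 33.7 ± 3.22 CPM in KO and 55.3 ± 6.21 CPM in WT (-0.71). Furin, the protease that cleaves glypican-3, was lower with TMM factors (-0.44, adjusted p = 0.000591) and at 0.02 with library totals alone. Gpc1 (0.41, adjusted p = 0.0993), Gpc6 (0.30, adjusted p = 0.248) and Sulf1 (-0.24, adjusted p = 0.669) were not called, and Gpc2 had too few counts to be tested.

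Dlk1 encodes a membrane protein of hepatoblasts related to the Notch ligands (Entrez 13386; chromosome 12, 109452823 to 109463336, plus strand, 6 exon blocks). It had 7 counts over the KO mice and 7 over the WT mice, with 0 counts in 5 KO and 7 WT mice. A count of 0 allows up to 0.147 CPM in KO livers and 0.188 CPM in WT livers (3 counts in the library where 1 count weighs most), which covers counting error only. The fit without the filter gave -0.30 (95% interval -1.93 to 1.34, edgeR adjusted p = 0.798), and a difference was not detectable at this depth. Among the Notch pathway genes and Dlk2, 2 of 10 tested were higher and 0 lower, with a median log2 fold change of 0.16: the receptor genes Notch1 (23.2 ± 5.30 CPM in KO, 15.6 ± 4.01 CPM in WT, 0.57) and Notch3 (3.40 ± 0.952 CPM in KO, 2.35 ± 0.658 CPM in WT, 0.53). The ligand gene Jag1 (0.20, adjusted p = 0.151) and the target gene Hey1 (0.62, adjusted p = 0.0649) were not called, and with library totals alone 8 of the 10 were higher. Over all tested genes 28.4% were higher with TMM factors and 68.4% with library totals alone.

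**Figure D4:**
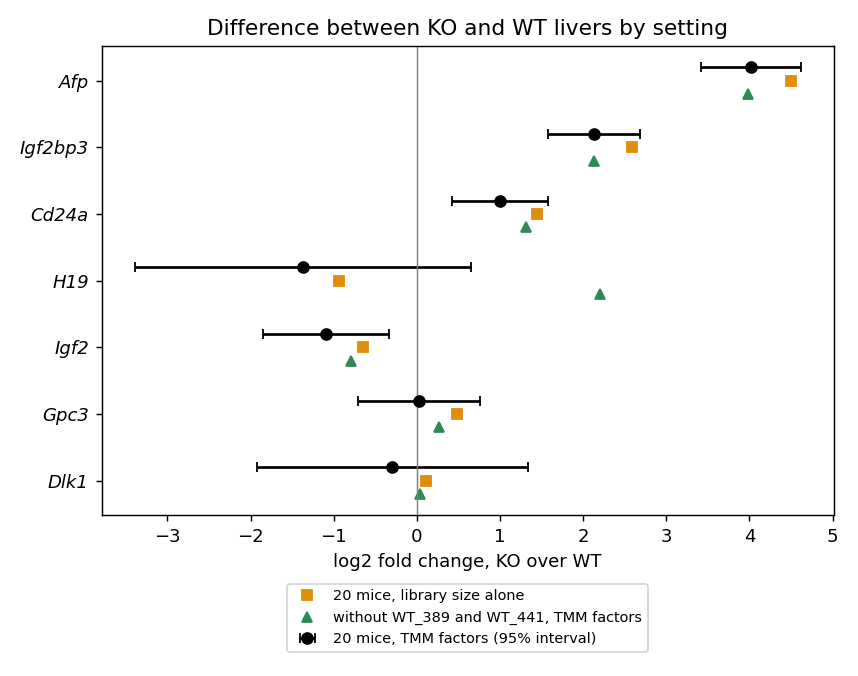
Log2 fold change of KO over WT for the 7 genes from edgeR, with the 95% interval for all 20 mice and TMM factors (black), library totals alone (orange squares) and without WT_389 and WT_441 (green triangles). Afp, Igf2bp3 and Cd24a lay right of 0 in all 3 settings, whereas H19 was at 2.20 without the 2 WT mice and at -1.37 with them.

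Over the 10 KO mice the 5 tested genes form 10 pairs, and no correlation of log2 CPM passed adjustment over the pairs. The strongest was between Afp and Cd24a (Pearson r = 0.71, permutation p = 0.0194, adjusted 0.157; Spearman rho = 0.73, permutation p = 0.0204, adjusted 0.106), and r was 0.47 without KO_391 and KO_434, the 2 mice farthest from the median of Afp. Afp and Igf2bp3 had an r of 0.42 (permutation p = 0.231, adjusted 0.331) and a rho of 0.32 (permutation p = 0.368, adjusted 0.526), and r was -0.33 without the same 2 mice.

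Genes whose level followed each of the 5 over the 20 mice, after centring within genotype, are given as a description, since all share the depth and dissection of the same libraries. For Afp they were Zfp512 (Pearson r = 0.78), Reep4 (0.77) and Slc7a7 (0.77). Igf2bp3 was followed by Spats2, Ehmt2 and Pxn (0.69 each), and Gpc3 by Itih3 (0.81), Blm (0.78) and Timp2 (0.78). Cd24a was followed by Laptm5, a lysosomal protein of blood cells (0.88), Otulinl (0.88) and Pkm, a pyruvate kinase (0.87). For H19 they included Slc25a4, the adenine nucleotide carrier of heart and muscle (0.85) and Amotl1 (0.84).

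Markers of growth and of other liver cells differed between the same livers. Of 18 tested proliferation genes 11 were higher in KO and 0 lower, with a median log2 fold change of 1.41, led by the mitotic genes Ccnb2 (2.60), Cenpf (2.36) and Aurkb (2.08) and the replication gene Mcm2 (1.58). The 20 listed genes summed to 58.9 to 269 CPM in KO and 52.8 to 78.0 CPM in WT, with KO_416 the highest, so the sums overlapped where Afp did not. All 10 macrophage markers were higher, with a median of 1.37 and summed levels of 290 to 492 CPM in KO and 120 to 226 CPM in WT, among them Gpnmb (4.47), Cd9 (1.79), Cd68 (1.43) and Lyz2 (1.31).

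Stellate cell markers gave 9 higher and 0 lower of 11, with a median of 0.90, among them the collagen genes Col1a1 (1.42) and Col1a2 (1.26), Lrat (1.14) and Dcn (0.57), and summed to 306 to 566 CPM in KO and 165 to 331 CPM in WT. Endothelial markers gave 3 higher of 7, Lyve1 (0.85), Cdh5 (0.70) and Pecam1 (0.37), with a median of 0.25, while Oit3 (0.25, adjusted p = 0.0996) was not called. Without KO_391, WT_389 and WT_441 it was 6 of 7, in a fit with 30.2% of genes higher and 29.7% lower. This setting was not planned in advance, and KO_391 had the lowest Afp of the KO mice. Erythroid markers, which mark the blood-forming cells of the fetal liver, gave 0 higher and 2 lower of 6, Alas2 (-2.30) and Klf1 (-1.58), while the globin genes Hba-a1 (-0.75, adjusted p = 0.172) and Hba-a2 (-0.71, adjusted p = 0.203) were not called. Hepatocyte markers gave 0 higher and 11 lower of 12, with a median of -0.67, among them Ttr (-1.22), Ahsg (-1.13), Fgb (-0.98) and Asgr1 (-0.62), and 1 higher and 5 lower with library totals alone. Where edgeR called 0 genes of a list in a direction, an unadjusted p under 0.05 and DESeq2 gave 0 too, apart from 1 fetal isozyme gene lower at an unadjusted p, and voom called 1 proliferation gene lower. Beside these counts, 28.4% of all tested genes were higher and 30.5% lower with TMM factors. The part of these cell populations in the levels of the 7 genes was not tested.

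**Figure D5:**
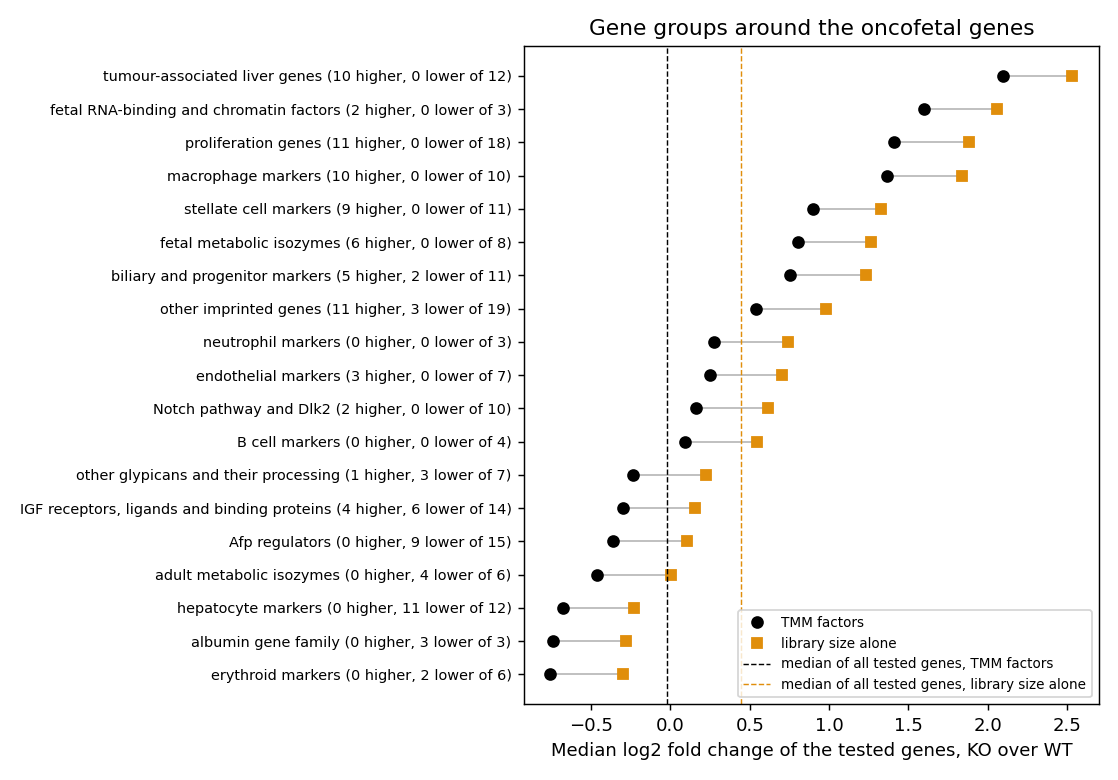
Median log2 fold change of KO over WT of the tested genes of each list, with TMM factors (black) and library totals alone (orange); dashed lines are the medians of all tested genes, -0.02 and 0.44, and labels give the genes called with TMM factors. Lists with only 1 tested gene are not plotted, and all lists were chosen with earlier results of these data known. Among those plotted, tumour-associated liver genes had the highest median, 2.09, and erythroid markers (-0.76) and the albumin gene family (-0.74) the lowest.

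In the authors' deposited table of KO against WT, Afp had a log2 fold change of 3.26 and Igf2bp3 one of 1.44, both with a false discovery rate printed as 0. Cd24a had 0.53 with a false discovery rate of 0.0137 in the authors' deposited table. These values came from ROTS rather than edgeR, and each was smaller than the edgeR value (4.01, 2.13 and 1.00). Deposited values are given here for 3 of the 7 genes only.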

How the data were processed

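Total RNA of frozen liver from 20 mice was sequenced, and genotype was taken from the sample labels, which give no litter, batch or date. Deposited by the authors were raw fragment counts by Entrez gene, with file names that give Rsubread and RefSeq annotation of mm10. HISAT2 2.0.5 and DESeq2 are named in the submitters' processing notes. The authors set no multi-mapping fragments aside, and no source used here says whether counting used strand. Their deposited normalized signal equalled CPM over the TMM effective library size (largest relative deviation 5.11e-15), and dividing it by gene length in kilobases gave the deposited RPKM (5.33e-15). The authors' ROTS table holds, per the file headers, log2 fold changes with p-values and false discovery rates. Gene lengths are those of the deposited annotation, and 19 columns of the deposited tables were not used.

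Raw counts were tested with edgeR 4.0.16 in R 4.3.3: filterByExpr (minimum count 10, total 15), TMM factors, robust quasi-likelihood F test, Benjamini-Hochberg adjustment over 13670 genes, threshold 0.05. Genes under the filter were read from a fit of all 20914 genes. Levels in CPM use TMM factors, with a prior count of 2 where log2 is taken. The test was tried on simulated data. Correlations within KO mice used two-sided permutation tests with 100000 resamples. Alternatives were library totals alone, DESeq2 size factors, upper-quartile factors, no filter, CPM of at least 1 in 10 mice, DESeq2 1.42.0, limma 3.58.1 (voom with quality weights, and trend on log2 RPKM plus 0.1 or 1) and leaving out mice.

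The 7 genes and 21 gene lists (213 genes) were chosen with earlier results of these data known, as was the list of 12 skeletal muscle genes. Named genes are all 7, Hsd17b12, the up to 4 tested genes with the smallest adjusted p in each list, every gene of the lists on Afp regulators, albumin relatives, glypicans, Cd24a partners and fetal RNA-binding factors, and the 3 genes with the highest correlation to each tested one (mean log2 CPM at least 1). A few genes named by it are not reported here. Counting intervals and floors cover counting error only. Promoters came from RefSeq GRCm38.p6.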

Additional observations from a re-analysis of the deposited data

How the results depend on the processing

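No paired analysis was possible because no label links a KO mouse to a WT mouse. Afp, Igf2bp3 and Cd24a kept their direction and their call in all alternatives run. Leaving out each mouse gave log2 fold changes of 3.81 to 4.14 for Afp, 1.96 to 2.23 for Igf2bp3, 0.91 to 1.17 for Cd24a, -1.73 to 0.12 for H19, -1.21 to -0.86 for Igf2, -0.10 to 0.23 for Gpc3 and -0.60 to 0.29 for Dlk1 (0.19 without WT_389). It left 3699 to 4292 genes higher and 3897 to 4210 lower. H19 and Gpc3 fell below the stricter filter. H19 was 0.22 with DESeq2, 1.36 with voom quality weights, 0.28 with limma on log2(RPKM + 0.1), 2.20 without WT_389 and WT_441 and 2.34 without these and KO_391 (adjusted p = 0.00658). Igf2 was -0.79 without WT_389 and WT_441, -0.75 without these and KO_391 and -0.64 with library totals alone, no longer called, and without the filter it was the 1 member called lower. Dlk1 was 0.031 without WT_389 and WT_441, 0.17 without these and KO_391 and 0.11 with library totals alone. Library totals alone gave 9354 genes higher and 919 lower. They turned the values of Sulf1 (0.22), Furin (0.017), Zhx2 (0.44), Zhx3 (0.062), Zbtb20 (0.45), Zfhx3 (0.45), Trp53 (0.45), Nr5a2 (0.22), Gc (0.069), Pygl (0.063) and Cd79b (0.28) above 0. Cd79b was also 0.18 with voom, Zfhx3 0.0042 with limma on log2(RPKM + 0.1), Sulf1 0.25 without WT_389 and WT_441 and 0.21 without these and KO_391, and Foxa1 -0.00233 without these 3 mice. Leaving out 1 mouse gave -0.36 to 0.14 for Sulf1, -0.053 to 0.0018 for Zhx2, -0.11 to 0.035 for Zbtb20, -0.056 to 0.040 for Zfhx3, -0.047 to 0.017 for Trp53, -0.025 to 0.44 for S100a8 and -0.22 to 0.34 for S100a9. The cause of these changes was not tested. The settings without WT_389 and WT_441, and without these and KO_391, were not planned in advance. KO_391 had the lowest Afp of the KO mice, so leaving it out is not a neutral check. Nor is leaving out WT_389 and WT_441 a neutral check for H19, as they held its highest values. Under 1 CPM, as for all Dlk1 and most Igf2, Gpc3 and H19 values, the counts per mouse limit what can be detected.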

Other observations

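Metabolic enzymes come in pairs of which the fetal liver and liver tumours use one form and the adult liver the other. Of 8 fetal forms tested, 6 were higher in KO livers and 0 lower, with a median log2 fold change of 0.81. Their summed level was 234 to 469 CPM in KO livers and 157 to 189 CPM in 9 WT livers, and it was 274 CPM in WT_389, the WT library with the highest skeletal muscle markers. Without WT_389, WT_441 and KO_391, the KO mouse with the lowest sum, 6 were higher and the median was 1.03. The part of muscle RNA in these values was not tested. Pygb, brain-type glycogen phosphorylase, averaged 21.8 ± 9.42 CPM in KO and 3.49 ± 0.705 CPM in WT livers (SD, n = 10 each), a log2 fold change of 2.64 (SE 0.24, edgeR adjusted p = 1.01e-08), and the genotypes did not overlap. The hexokinase gene Hk2 had 4.22 ± 1.72 CPM in KO and 1.57 ± 1.38 CPM in WT (1.39), and the aldolase gene Aldoa 255 ± 45.2 CPM in KO and 136 ± 27.9 CPM in WT (0.91). Of 6 adult forms, 0 were higher and 4 lower, with a median of -0.47, among them Gls2, the liver-type glutaminase (-1.13), Gys2, liver glycogen synthase (-0.81), and Pygl (-0.40). With library totals alone, 7 of the 8 fetal forms were higher, and the median of the adult forms was 0.00, with 1 higher and 1 lower.

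Of 12 tested genes that are known to rise in liver tumours, 10 were higher in KO and 0 lower, with a median log2 fold change of 2.09. The list was chosen with earlier results of these data known, and 28.4% of all tested genes were higher in KO. Anxa2, a membrane-binding annexin, averaged 103 ± 40.3 CPM in KO and 11.2 ± 3.28 CPM in WT (3.20, SE 0.28, edgeR adjusted p = 1.37e-08). The imprinted, retrotransposon-derived gene Peg10 averaged 3.65 ± 1.33 CPM in KO and 0.687 ± 0.249 CPM in WT (2.41). The Golgi protein gene Golm1 had 10.1 ± 3.88 CPM in KO and 1.96 ± 0.550 CPM in WT (2.35), and the axon guidance receptor gene Robo1 27.7 ± 6.66 CPM in KO and 6.79 ± 2.60 CPM in WT (2.02).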
